A study of Mus musculus with 9 samples.

Results

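The 50 cell cycle and mitosis genes described here were a list named from their known roles, with earlier results of these data known. By role, 5 were G1 cyclins and kinases and 3 were inhibitors. Another 18 were genes of the G1/S transition and S phase, and 24 were genes of G2 and mitosis (G2/M). All 50 stood in the expression table of 24571 genes and all 50 passed the filter of a mean of at least 1 TPM that left 13682 genes for testing. TPM is a transcript abundance that takes account of gene length and is scaled so that every library has nearly the same sum. Expression had been measured by RNA-seq in hearts of mouse embryos at E18.5, shortly before birth, with 3 wild-type, 3 heterozygous and 3 homozygous libraries. The C57BL/6N mutant embryos carried 1 or 2 copies of a *Ctcf* allele made by CRISPR/Cas9 editing, in which CTCF, a DNA-binding zinc-finger protein of chromatin loop anchors, has the substitution R567W in every cell of the body, and the wild-type embryos carried none. Litter and sex are not given in the labels, and nothing in them says that the 3 libraries of a genotype came from separate embryos, so p-values measure the spread between libraries. In a whole heart, fewer cycling cells and less RNA per cycling cell cannot be told apart.

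A cell enters the cycle when D-type cyclins with CDK4 or CDK6 inactivate the retinoblastoma proteins, which frees E2F factors to switch on cyclin E, the nucleotide-making enzymes and the licensing factors that load the MCM helicase on DNA. Genes of the later wave, from cyclin A and cyclin B with CDK1 to the spindle, kinetochore and cytokinesis proteins, are transcribed mainly in G2 and mitosis, and the anaphase-promoting complex marks some of their proteins, the mitotic cyclins among them, for degradation. The foetal heart still grows by division of cardiomyocytes and of their endothelial, stromal and blood-borne neighbours, and cardiomyocytes leave the cycle around birth.

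*Ctcf* itself stood at 27.0, 29.0 and 34.3 TPM in wild-type hearts, at 33.8, 33.2 and 38.7 TPM in heterozygous hearts and at 38.9, 41.4 and 50.2 TPM in homozygous hearts. The homozygous libraries were above all wild-type libraries without overlap, but the log2 difference of 0.52 (SE 0.14, limma, adjusted p = 0.107) did not pass the threshold of 0.05, and a substitution need not alter the transcript level. Across all 13682 genes the values also stood higher in homozygotes than in the wild type, by a median of 0.23 on the scale of log2(TPM + 1), with 81.7% of genes above 0. This median moved to 0.02 when libraries were rescaled by median ratios, a scaling that brings such medians near 0 by construction. Whether the shift was technical was not tested. Because it depends on the scaling, differences of gene groups are given below relative to the median of all tested genes. That median was 0.08 for homozygous against heterozygous hearts and 0.15 for heterozygous against wild-type hearts. Cardiomyocyte markers were high in every library, with a sum over 12 genes of 47400 to 55120 TPM in 8 libraries and of 38660 TPM in homozygous replicate 3. The 6 fibroblast markers summed to 595 TPM in that library, against 775 to 1395 TPM in the others.

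Transcripts of other organs stood out most in 3 libraries. In homozygous replicate 3, 15 thymocyte markers summed to 820 TPM against 9.45 to 16.1 TPM in the other 8 libraries, where 2 to 9 of the 15 were at 0 and *Cd3d* and *Rag2* at or near 0, and 7 thymic epithelial markers summed to 256 TPM against 12.3 to 30.9 TPM. In wild-type replicate 1, 12 airway and lung markers summed to 2622 TPM, and in heterozygous replicate 1 they summed to 1108 TPM beside 15 liver markers at 4255 TPM. Elsewhere the airway and lung sum ran from 0.30 to 51.3 TPM and the liver sum from 31.3 to 186 TPM. The 10 erythroid markers summed to 2853 to 14600 TPM in wild-type hearts, to 5114 to 15550 TPM in heterozygous hearts and to 4306 to 5149 TPM in homozygous hearts. *Xist*, which marks female cells, was at 87.8 to 146 TPM in wild-type replicate 1, all heterozygous replicates and homozygous replicate 1 and at 0.02 to 0.05 TPM in the other 4 libraries. The part of these differences in the results below was not tested except where values without the 3 libraries are given.

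**Figure D1:**
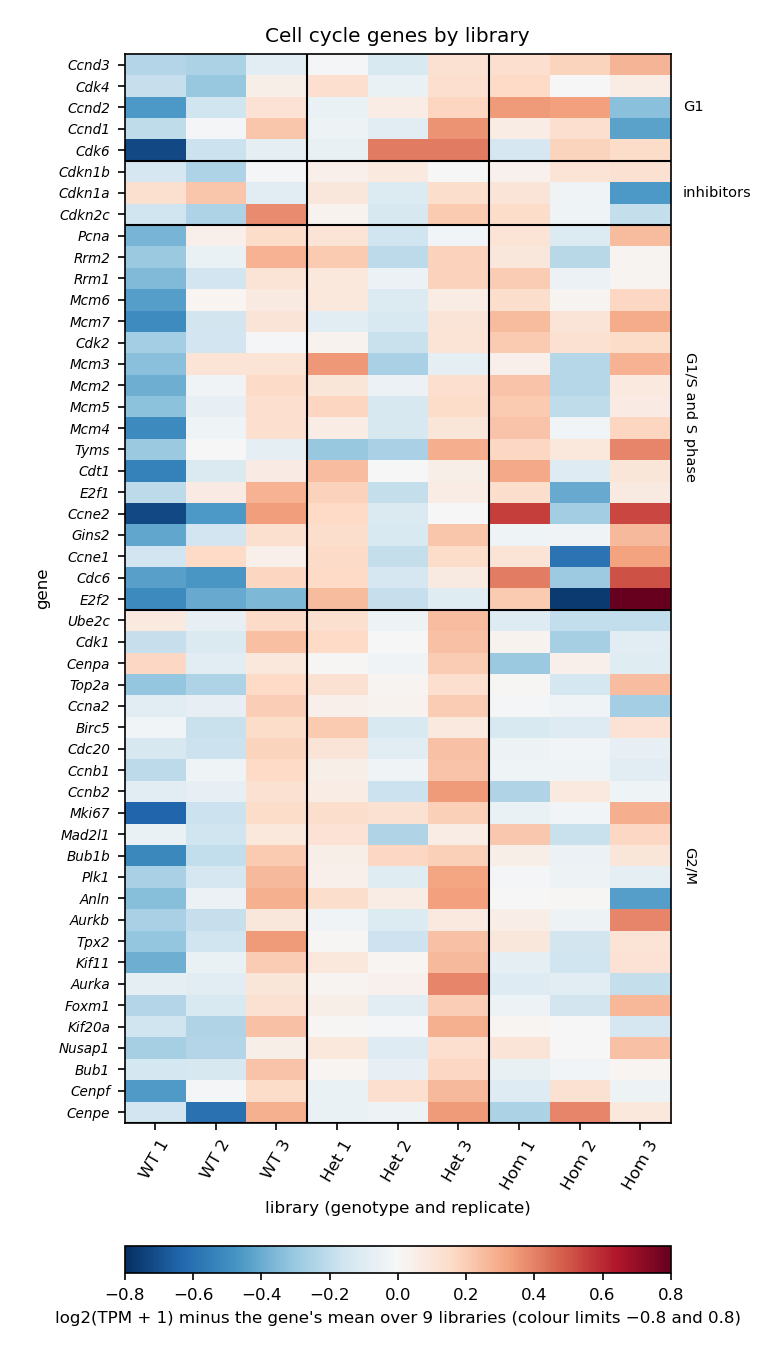
Heat map of the 50 cell cycle genes, 1 per row and grouped by role, in the 9 libraries, 1 per column; colour gives log2(TPM + 1) minus the mean of the gene over the 9 libraries. Wild-type replicate 1 was the lowest library for 13 of the 18 G1/S and S genes, beside 38.3% of all tested genes. Homozygous replicate 3 was the highest for 8 of the 18, beside 16.6%. Heterozygous replicate 3 was the highest for 12 of the 24 G2/M genes, beside 12.1%.

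None of the 50 genes was called by limma at an adjusted p under 0.05 in homozygous against wild-type hearts, beside 0.336% of all tested genes. At an unadjusted p under 0.05, 3 members were higher and 0 lower in homozygous hearts, beside 22.9% and 2.16% of all genes, so that the members stood below the background for higher values. Without overlap between the 3 libraries of each genotype, 4 members were higher, namely *Ccnd3*, *Cdk2*, *Tyms* and *Cdkn1b*, beside 22.3% of all genes, and 1 was lower, *Ube2c*, beside 2.38%. After median-ratio scaling 0 members were called higher and 2 lower, *Ube2c* and *Ccna2*, beside 1.67% of all genes called. *Cdk2* and *Tyms* are named because of their values, as are *Mcm7*, *Aurka*, *Anln*, *Spc25* and *Cdkn1c* below.

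The role groups differed in where they lay among all genes. The median log2 difference of the 24 G2/M genes between homozygous and wild-type hearts was 0.01, which is 0.22 below the median of all genes, and 21 of the 24 lay below it. For the 18 G1/S and S genes the median was 0.22, which is 0.01 below that of all genes, with 10 of 18 below it. Some lists of genes outside the cycle lay below it too. The 12 cardiomyocyte markers were 0.24 below it at the median with 1 of 12 above, and the 6 fibroblast markers 0.15 below with 1 of 6 above. The 6 endothelial markers were 0.02 above it and the 6 macrophage markers 0.003 below it, each with 3 of 6 above. A place below the median of all genes was thus not particular to the mitotic genes, but not all heart cell markers shared it. Relative to all genes, the median centred log2 level of the cardiomyocyte markers was 0.17, 0.16 and 0.05 in the wild type, 0.02, 0.09 and 0.02 in heterozygotes and −0.02, −0.09 and −0.27 in homozygotes. That of the fibroblast markers was 0.04, 0.10 and 0.03 in the wild type and 0.19, −0.29 and 0.24 in heterozygotes. In homozygotes it was 0.25, 0.27 and −0.72, so that only replicate 3, with thymus transcripts, was low. The part of these markers in the place of the G2/M genes was not tested. The 5 G1 genes lay 0.05 above the median of all genes and the 3 inhibitors 0.25 below it. Leaving out the 3 libraries with transcripts of other organs moved the G2/M group to 0.32 below the median of all genes with 24 of 24 genes below, and the S group to 0.18 below with 17 of 18 below. The G2/M group stayed below the median of all genes in 22 of 22 alternative settings, including each of the 3 scalings. The S group was below it in 16 and above it in the others, quantile normalisation among them. These settings reused the same libraries and are not separate tests. Dividing a library by a constant moves the group and all genes nearly alike, so such a scaling could hardly change this measure.

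**Figure D2:**
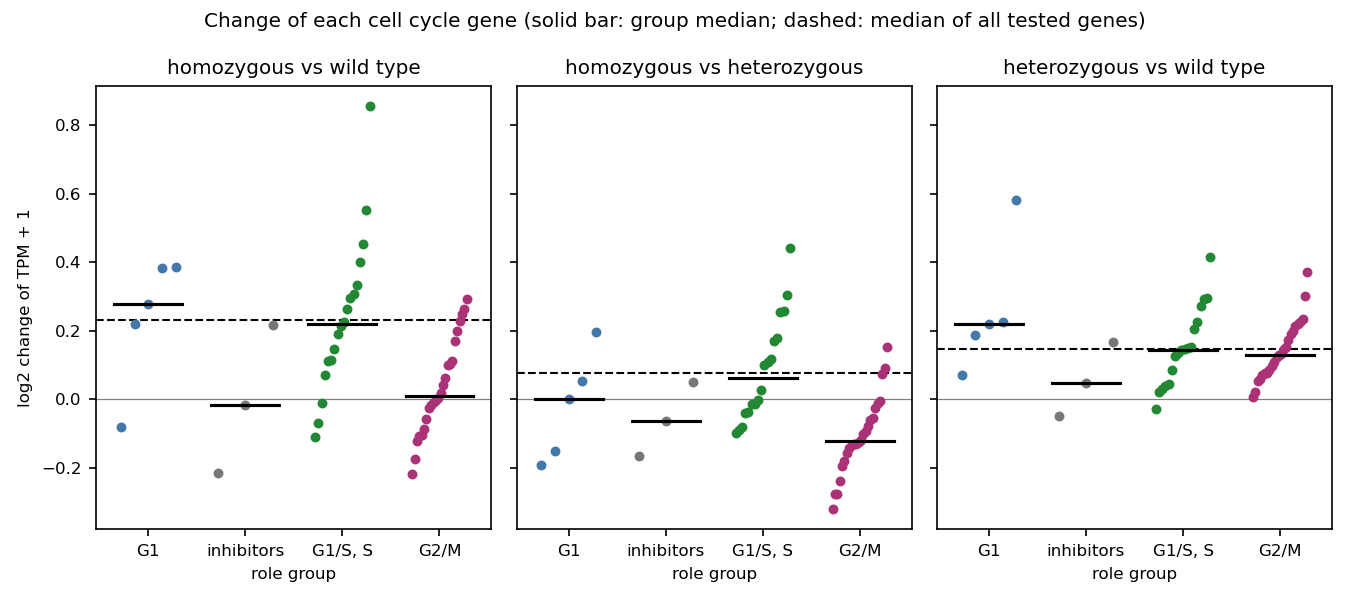
Log2 difference of each of the 50 genes on the scale of log2(TPM + 1), by role group, in the 3 comparisons; points are genes, solid bars the medians of the groups and dashed lines the median of all tested genes. The G2/M genes lay mostly below the dashed line in both comparisons of homozygous hearts (21 and 22 of 24) and on both sides of it in heterozygous against wild-type hearts (14 of 24 below).

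Sequence features that the list did not use also separated the S and G2/M genes. G2/M promoters are known for the cell cycle genes homology region (CHR), usually paired with CCAAT boxes, and G1/S promoters for E2F sites. The mouse RefSeq promoters (GRCm38.p6, 250 bases before to 50 after the transcription start) held 40 of the 50 genes in 45 promoters, without *Aurkb*, *Ccna2*, *Ccnd1*, *Ccnd2*, *Ccne2*, *Foxm1*, *Gins2*, *Kif20a*, *Mcm4* and *Tpx2*. Searched on both strands, the CHR letters TTTGAA or TTCGAA occurred in 14 of 19 G2/M promoters (73.7%) and in 3 of 17 S promoters (17.6%), beside 13.8% of the 12740 promoters of tested genes and 19.2% of all 32851 promoters. The letters CCAAT occurred in 78.9% of G2/M and 70.6% of S promoters, beside 37.4% both of tested-gene promoters and of all promoters. An E2F match (the letters TTCCCGC, the form TTCGCGC, the form TTGCCGC or the form TTGGCGC) occurred in 15.8% of G2/M and 64.7% of S promoters, beside 16.3% of tested-gene promoters, which is near the G2/M share, and 9.57% of all promoters. CHR and CCAAT occurred together in 68.4% of G2/M, 17.6% of S, 5.75% of tested-gene and 7.52% of all promoters. A match of letters is a description of the window and not a bound site, and E2F and CCAAT matches can share bases.

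The promoters of *Ube2c* and *Aurka*, which were lower without overlap in homozygous than in heterozygous hearts, and of *Cdk2* and *Mcm7*, S-phase genes with unadjusted p under 0.05 in homozygous against wild-type hearts, are shown as examples. They are written 5′ to 3′ on the strand of the gene, from chr2:164769679-164769978 (+) for *Ube2c*, chr2:172370521-172370820 (−) for *Aurka*, chr10:128705002-128705301 (−) for *Cdk2* and chr5:138171834-138172133 (−) for the more upstream of the 2 *Mcm7* promoters. Capitals mark every match to the CHR, CCAAT and E2F letters on either strand.
Ube2c: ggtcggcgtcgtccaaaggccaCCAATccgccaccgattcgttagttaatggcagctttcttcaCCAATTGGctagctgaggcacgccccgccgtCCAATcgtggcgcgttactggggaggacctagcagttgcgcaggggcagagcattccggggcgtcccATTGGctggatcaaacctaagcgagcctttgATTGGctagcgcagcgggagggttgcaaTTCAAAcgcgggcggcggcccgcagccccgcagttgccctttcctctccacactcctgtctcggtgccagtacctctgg
Aurka: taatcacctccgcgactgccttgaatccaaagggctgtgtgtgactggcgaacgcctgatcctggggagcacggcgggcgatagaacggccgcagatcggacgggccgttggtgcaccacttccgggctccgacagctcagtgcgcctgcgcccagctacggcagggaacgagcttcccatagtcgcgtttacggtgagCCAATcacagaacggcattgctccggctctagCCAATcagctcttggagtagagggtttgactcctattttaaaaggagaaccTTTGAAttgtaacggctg
Cdk2: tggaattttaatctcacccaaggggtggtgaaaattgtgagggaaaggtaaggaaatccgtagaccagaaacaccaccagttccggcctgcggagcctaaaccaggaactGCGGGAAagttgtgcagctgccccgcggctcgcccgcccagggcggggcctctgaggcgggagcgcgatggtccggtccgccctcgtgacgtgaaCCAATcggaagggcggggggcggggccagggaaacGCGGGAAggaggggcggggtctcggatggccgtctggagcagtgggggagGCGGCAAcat
Mcm7: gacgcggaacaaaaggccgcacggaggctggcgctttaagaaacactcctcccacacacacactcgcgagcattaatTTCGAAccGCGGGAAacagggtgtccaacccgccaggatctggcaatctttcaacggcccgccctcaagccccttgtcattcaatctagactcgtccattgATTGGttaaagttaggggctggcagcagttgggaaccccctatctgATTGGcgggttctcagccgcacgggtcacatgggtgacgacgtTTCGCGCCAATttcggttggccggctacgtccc
In *Ube2c* the CHR match, TTCAAA on this strand, begins 29 bases before the start, with 6 CCAAT matches upstream of it. *Aurka* has CCAAT matches 51 and 19 bases before the start and a CHR match 32 bases after it. *Cdk2* holds 3 E2F matches, 140 and 10 bases before and 40 bases after the start, 1 CCAAT match and no CHR match. The *Mcm7* promoter shown holds E2F and CCAAT matches and also a CHR match 173 bases before the start, while the other *Mcm7* promoter holds E2F and CCAAT matches without CHR. The run of capitals after the start of *Mcm7* joins overlapping E2F and CCAAT matches.

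**Figure D3:**
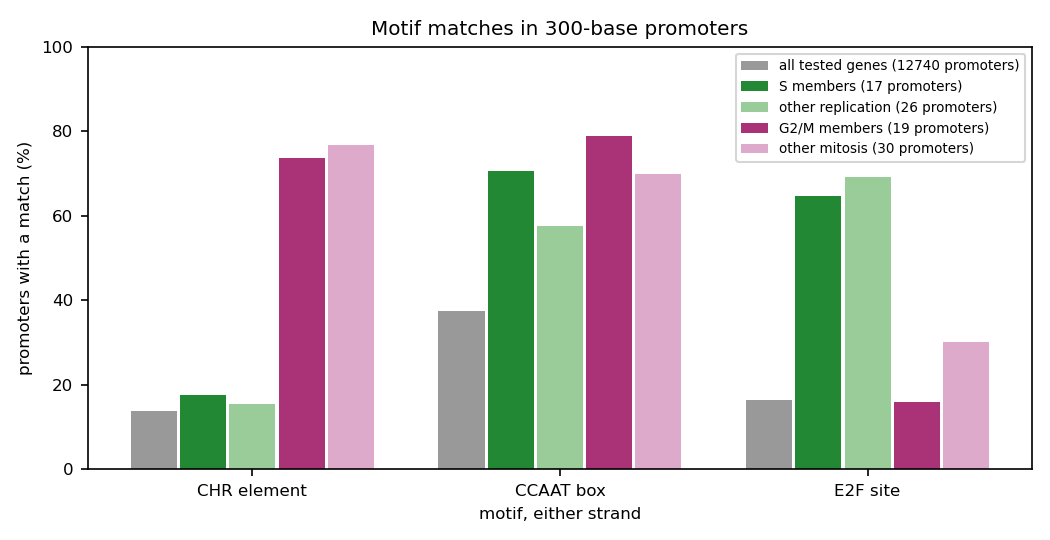
Percentage of 300-base promoters with at least 1 match to the CHR, CCAAT or E2F letters on either strand, for promoters of all tested genes and of 4 gene lists, with the number of promoters in the key. The G2/M members and the other mitosis genes stood out in CHR (73.7% and 76.7%) and the S members and other replication genes in E2F (64.7% and 69.2%).

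Among the G1 genes, which drive cells out of quiescence, *Ccnd3* was the most abundant. This gene for cyclin D3, at chr17:47505051-47599691 (+), stood at 157, 155 and 174 in the wild type, 184, 169 and 200 in heterozygotes and 203, 209 and 223 TPM in homozygotes. The homozygous libraries lay above both other groups without overlap, and the means were 162 ± 10.4, 185 ± 15.5 and 211 ± 10.3 TPM (SD, n = 3). The log2 difference of homozygous against wild-type hearts was 0.38 (SE 0.10), or 0.15 relative to all genes, and did not pass (limma, adjusted p = 0.103; 0.0113 to 0.440 over all settings). It passed with library weights and without wild-type replicate 3 (log2 0.44, limma, adjusted p = 0.0313). The library weights were 0.81, 1.90 and 0.36 for wild-type replicates 1, 2 and 3. Both settings thus lowered or removed the part of wild-type replicate 3. In both settings far more of all genes were called too, as given in the section on processing below. *Ccnd3* overlaps *Bysl* on the opposite strand, and use of strand in counting is not stated.

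The other D-type cyclins did not separate the genotypes. *Ccnd2* (cyclin D2) was at 43.5, 53.7 and 65.4 in the wild type, 57.9, 62.8 and 67.8 in heterozygotes and 76.5, 75.7 and 47.6 TPM in homozygotes. *Ccnd1* (cyclin D1) was at 38.9, 44.6 and 52.7 in the wild type, 43.6, 42.2 and 57.9 in heterozygotes and 46.9, 49.5 and 33.2 TPM in homozygotes. For both genes homozygous replicate 3, the library with thymus transcripts, was far below the other 2 homozygous libraries, and the groups overlapped.

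*Cdk4*, the kinase partner of the D cyclins, read 114, 105 and 133 in the wild type, 142, 125 and 142 in heterozygotes and 144, 129 and 135 TPM in homozygotes, with overlap throughout. Its relative *Cdk6* was at 9.25, 14.03 and 15.02 in the wild type, 15.3, 21.5 and 21.6 in heterozygotes and 14.4, 18.1 and 17.8 TPM in homozygotes. The heterozygous libraries were above all wild-type libraries for *Cdk6*, and it was the member with an unadjusted p under 0.05 in that comparison (log2 0.58, SE 0.20, limma, adjusted p = 0.672). Homozygous against wild-type hearts gave 0.39 for *Cdk6* (SE 0.20, limma, adjusted p = 0.242).

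The CDK inhibitors, which hold cells out of the cycle, gave no common direction. *Cdkn1b* (p27) stood at 37.9, 35.03 and 41.5 in the wild type, 43.0, 44.0 and 41.6 in heterozygotes and 42.7, 45.0 and 45.5 TPM in homozygotes. Both mutant groups lay above the wild-type libraries without overlap, but by 0.22 in homozygous hearts (SE 0.10, limma, adjusted p = 0.218), which is 0.01 below the median of all genes, and median-ratio scaling turned this difference to −0.02. *Cdkn1a* (p21), a target of p53, was at 31.3, 33.5 and 26.9 in the wild type, 30.4, 26.4 and 31.6 in heterozygotes and 30.8, 27.9 and 20.5 TPM in homozygotes. *Cdkn2c* (p18) read 24.98, 23.5 and 36.7 in the wild type, 28.6, 25.6 and 32.6 in heterozygotes and 31.1, 27.4 and 24.5 TPM in homozygotes. The groups overlapped for both, with log2 differences of −0.22 (SE 0.16, limma, adjusted p = 0.393) and −0.02 in homozygous against wild-type hearts.

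**Figure D4:**
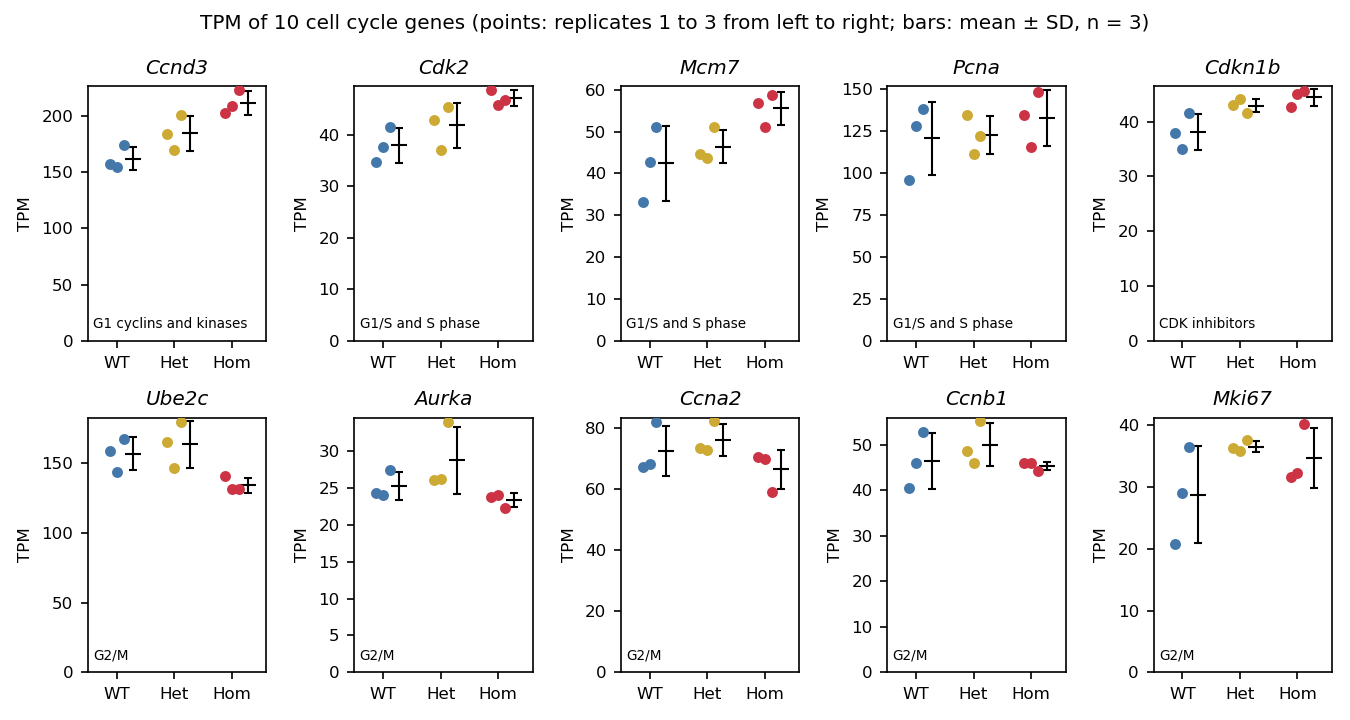
TPM of 10 cell cycle genes in the 9 libraries; points are libraries, replicates 1 to 3 from left to right, and bars mean ± SD (n = 3) for wild-type (WT), heterozygous (Het) and homozygous (Hom) hearts. *Ccnd3* and *Cdk2* of homozygous hearts sat above both other groups, and *Ube2c* below both, while *Pcna* and *Mki67* overlapped.

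Of the 18 G1/S and S genes, 16 overlapped between homozygous and wild-type hearts, among them the 3 most abundant. *Pcna*, the sliding clamp of DNA polymerases, stood at 95.7, 128 and 138 in the wild type, 134, 111 and 122 in heterozygotes and 134, 115 and 148 TPM in homozygotes. *Rrm2*, a subunit of ribonucleotide reductase that is made in S phase, was at 68.5, 81.5 and 102 in the wild type, 97.7, 72.9 and 96.2 in heterozygotes and 89.8, 72.3 and 85.96 TPM in homozygotes. Its partner *Rrm1* was at 40.8, 46.9 and 56.4 in the wild type, 55.5, 50.5 and 59.4 in heterozygotes and 60.4, 50.5 and 53.0 TPM in homozygotes. For all 3 genes wild-type replicate 1 was the lowest library, as it was for 38.3% of all tested genes, and the genotypes overlapped. Of the transcript sequence of *Pcna* 23.3%, and of *Rrm2* 12.0%, in words of 31 bases, also occurs in other genes, mainly copies without introns, so their levels are less certain.

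The 6 MCM genes encode the helicase that unwinds DNA at replication forks. *Mcm2* stood at 25.7, 33.5 and 38.0 in the wild type, 36.6, 33.0 and 37.6 in heterozygotes and 40.1, 29.0 and 36.1 TPM in homozygotes. *Mcm7*, at chr5:138164583-138172422 (−), was at 33.3, 42.8 and 51.1 in the wild type, 44.6, 43.6 and 51.0 in heterozygotes and 56.9, 51.0 and 58.7 TPM in homozygotes. *Mcm7* had the largest log2 difference of the 6 MCM genes between homozygous and wild-type hearts, 0.40 (SE 0.15, limma, adjusted p = 0.154; 0.0251 to 0.490 over all settings), although its groups met at 51.0 and 51.1 TPM. Of its transcript sequence 26.8% also occurs elsewhere, and it overlaps *Cops6* and *Ap4m1*. The other MCM differences ran from 0.07 for *Mcm3* to 0.26 for *Mcm4*.

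*Cdk2*, the kinase of cyclins E and A at chr10:128697939-128705031 (−), stood at 34.6, 37.6 and 41.5 in the wild type, 42.9, 37.0 and 45.4 in heterozygotes and 48.7, 45.7 and 46.6 TPM in homozygotes. The homozygous libraries were above both other groups without overlap, with means of 37.9 ± 3.44, 41.8 ± 4.30 and 47.0 ± 1.54 TPM (SD, n = 3). The log2 difference against wild-type hearts was 0.31 (SE 0.12, limma, adjusted p = 0.153; 0.0233 to 0.671 over all settings), which is 0.08 above the median of all genes.

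*Ccne2* (cyclin E2), whose protein starts S phase with CDK2, was at 7.97, 9.78 and 17.6 in the wild type, 15.5, 12.6 and 13.7 in heterozygotes and 20.7, 11.2 and 20.5 TPM in homozygotes. The spread within a genotype was as wide as the difference (log2 0.55, SE 0.28, limma, adjusted p = 0.243). *E2f2*, a transcriptional activator of S-phase genes that is also prominent in dividing thymocytes, was at 2.5, 2.76 and 2.87 in the wild type, 4.92, 3.38 and 3.65 in heterozygotes and 4.76, 1.93 and 16.9 TPM in homozygotes. Its largest value was in homozygous replicate 3, the library with 820 TPM of thymocyte markers, and the log2 difference of 0.86 (SE 0.50, limma, adjusted p = 0.292) was 0.15 without that library and 1.45 without homozygous replicate 2. Heterozygous libraries were above wild-type libraries for *E2f2* without overlap.

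The remaining G1/S and S genes, from *Mcm6* at a mean of 50.2 TPM over the 9 libraries to *Cdc6* at 4.87 TPM, overlapped between homozygous and wild-type hearts except *Tyms*. *Tyms*, which makes thymidylate for DNA synthesis, was at 17.1, 21.3 and 20.3 in the wild type and 23.96, 22.6 and 28.3 TPM in homozygotes (log2 0.33, SE 0.17, limma, adjusted p = 0.247). *E2f1* (−0.11), *Ccne1* (−0.07) and *Rrm2* (−0.01) were the 3 of 18 with a log2 difference below 0.

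Among the G2/M genes, *Ube2c* was the most abundant, and the member that was lower in homozygous hearts than in both other groups without overlap. It encodes the ubiquitin-conjugating enzyme that works with the anaphase-promoting complex, and lies at chr2:164769898-164778822 (+). In wild-type hearts *Ube2c* stood at 159, 144 and 167 TPM, in heterozygous hearts at 165, 146 and 179 TPM and in homozygous hearts at 140, 131 and 131 TPM. The means were 157 ± 12.0, 163 ± 16.6 and 134 ± 5.35 TPM (SD, n = 3). The log2 difference was −0.22 against wild-type hearts (SE 0.11, limma, adjusted p = 0.223; 0.0396 to 0.437 over all settings), which is 0.45 below the median of all genes, and −0.28 against heterozygous hearts (SE 0.11, limma, adjusted p = 0.663). It was below 0 against wild-type hearts in all settings and passed after median-ratio scaling (−0.46, adjusted p = 0.0396). *Ube2c* overlaps *Tnnc2* on the opposite strand, which was at 0.17 to 3.45 TPM.

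The mitotic cyclins and their kinase had lower homozygous means without passing a test. *Cdk1*, the kinase that starts mitosis, was at 107, 112 and 144 in the wild type, 137, 122 and 144 in heterozygotes and 124, 102 and 115 TPM in homozygotes. *Ccna2* (cyclin A2) read 67.3, 68.3 and 82.2 in the wild type, 73.5, 73.0 and 82.4 in heterozygotes and 70.6, 70.0 and 59.2 TPM in homozygotes. *Ccnb1* (cyclin B1) read 40.6, 45.9 and 52.7 in the wild type, 48.6, 46.1 and 55.2 in heterozygotes and 45.9, 45.9 and 44.3 TPM in homozygotes. For *Ccna2* and *Ccnb1* the homozygous libraries were below all heterozygous libraries and overlapped the wild-type libraries. The *Ccna2* difference against wild-type hearts was −0.12 (SE 0.12, limma, adjusted p = 0.519), and was −0.36 after median-ratio scaling, where it passed, and 0.00 with library weights. *Ccnb1* shares 27.7% of its transcript sequence with other genes, mainly a pseudogene.

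The proliferation markers in wide use pointed no single way. *Mki67*, which encodes the Ki-67 antigen of cycling cells, stood at 20.7, 29.0 and 36.4 in the wild type, 36.3, 35.8 and 37.5 in heterozygotes and 31.6, 32.3 and 40.3 TPM in homozygotes. The lowest library for *Mki67* was wild-type replicate 1, with lung markers, which was the lowest for 38.3% of all tested genes. The highest was homozygous replicate 3, with thymus markers, which was the highest for 16.6% of them. The *Mki67* log2 difference of 0.29 (SE 0.18, limma, adjusted p = 0.322) was −0.02 without the 3 libraries that held transcripts of other organs. *Top2a*, the topoisomerase that untangles sister chromatids, was at 63.2, 66.1 and 88.0 in the wild type, 85.6, 79.9 and 86.5 in heterozygotes and 79.0, 71.3 and 93.6 TPM in homozygotes. *Nusap1*, a spindle microtubule protein, was at 15.04, 15.4 and 18.9 in the wild type, 19.4, 17.0 and 20.2 in heterozygotes and 19.7, 18.3 and 21.7 TPM in homozygotes. *Cenpa*, the histone H3 variant of centromeres, was at 115, 96.4 and 108 in the wild type, 103, 100 and 118 in heterozygotes and 82.9, 105 and 95.6 TPM in homozygotes. All 4 overlapped between genotypes, with log2 differences of homozygous against wild-type hearts of 0.26 for *Nusap1*, 0.17 for *Top2a* and −0.17 for *Cenpa*.

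The other 16 G2/M genes had means over the 9 libraries from 11.4 TPM (*Cenpe*, a kinetochore motor) to 62.3 TPM (*Birc5*, survivin). Their log2 differences of homozygous against wild-type hearts ran from −0.11 (*Anln*, anillin of the cytokinetic ring) to 0.25 (*Aurkb*, the kinase of the chromosomal passenger complex), and all 16 overlapped between these genotypes. *Mki67*, *Nusap1* and *Aurkb* were the 3 of 24 G2/M genes above the median of all genes.

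In homozygous against heterozygous hearts 0 of the 50 members were called by limma, beside 0.0439% of all genes. At an unadjusted p under 0.05, 0 members were higher, beside 4.83% of all genes, and 1 was lower, *Ube2c*, beside 2.32%. *Ube2c*, *Ccna2*, *Ccnb1*, *Aurka* and *Anln*, all of the G2/M group, were lower without overlap, 5 of 50 members beside 3.85% of all genes, and *Ccnd3* and *Cdk2* were higher without overlap, beside 12% of all genes. *Aurka*, the centrosome kinase, was at 24.2, 23.99 and 27.4 in the wild type, 26.0, 26.2 and 33.9 in heterozygotes and 23.7, 24.1 and 22.3 TPM in homozygotes (log2 −0.28 against heterozygous hearts, SE 0.13, limma, adjusted p = 0.716). *Anln* was at 30.5, 28.8 and 34.9 in heterozygotes and 27.6, 27.8 and 20.1 TPM in homozygotes. The G2/M group lay 0.20 below the median of all genes, with 22 of 24 genes below it, and the S group 0.01 below with 9 of 18 below. Cardiomyocyte markers lay 0.23 below it with 0 of 12 above, and fibroblast markers 0.15 below with 0 of 6 above. Endothelial markers lay 0.02 above it with 3 of 6 above, and macrophage markers 0.20 above it with 6 of 6 above. The part of these markers was not tested here either. This comparison and that with wild-type hearts share the homozygous libraries.

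In heterozygous against wild-type hearts 0 of the 50 members were called by limma, beside 0.0146% of all genes. At an unadjusted p under 0.05, 1 member was higher, *Cdk6*, beside 6.29% of all genes, and 0 were lower, beside 0.577%. *Cdk6*, *Cdkn1b* and *E2f2* were higher without overlap, beside 12.8% of all genes, and 0 members were lower, beside 1.03%. The G2/M group lay 0.02 below the median of all genes with 14 of 24 below, and the S group lay at it (0.00) with 10 of 18 below. The difference between the 2 mutant genotypes in their distance from wild type is the comparison of homozygous with heterozygous hearts given above.

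By library, the G2/M genes separated homozygous replicates 1 and 2 from the rest. The median centred log2 level of the 24 genes, less that of all tested genes, was 0.04, 0.05 and 0.12 in wild-type, 0.02, 0.01 and 0.14 in heterozygous and −0.17, −0.20 and 0.01 in homozygous libraries. The third homozygous library, with thymus transcripts, was level with heterozygous replicate 2. The same measure over the S genes was −0.15, 0.12 and 0.08 in wild-type, 0.12, −0.08 and 0.01 in heterozygous and 0.07, −0.32 and 0.23 in homozygous libraries, so that the lowest and the highest of the 9 were both homozygous. As absolute sums, the 24 G2/M genes gave 1078 ± 136, 1169 ± 103 and 1056 ± 24.96 TPM and the 18 S genes gave 587 ± 105, 633 ± 62.9 and 667 ± 77.1 TPM in wild-type, heterozygous and homozygous hearts (SD, n = 3). The ratio of the S sum to the G2/M sum was 0.477, 0.601 and 0.554 in wild-type, 0.580, 0.524 and 0.520 in heterozygous and 0.666, 0.561 and 0.667 in homozygous libraries, and the groups overlapped.

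**Figure D5:**
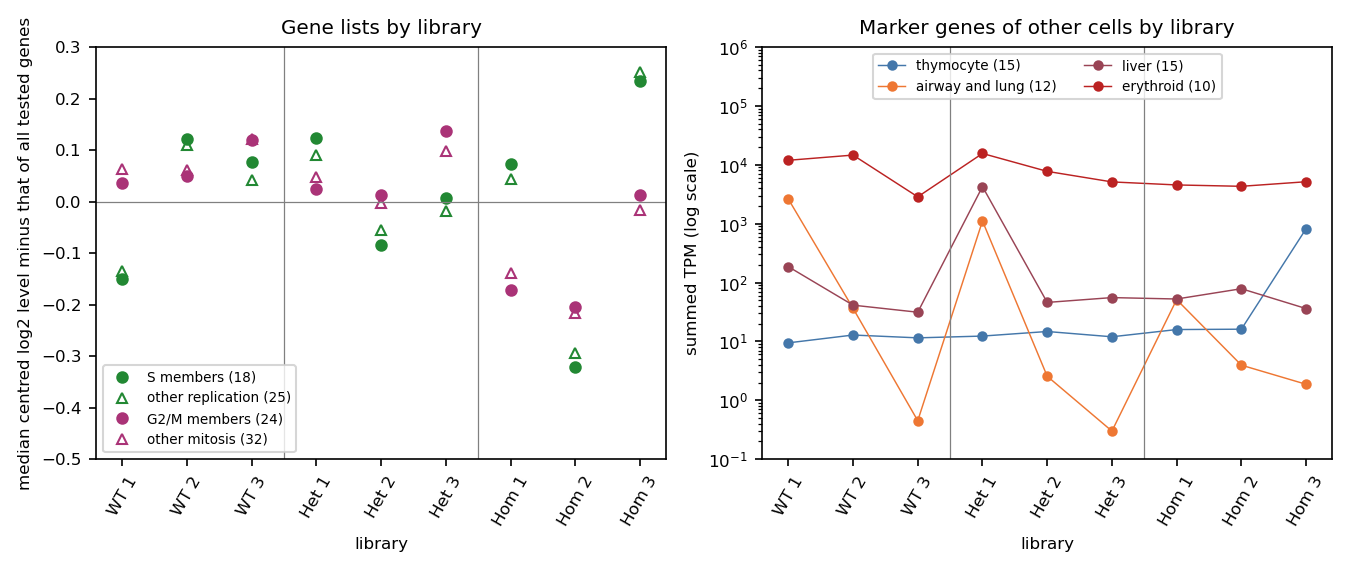
Left, median centred log2 level of 4 gene lists less that of all tested genes, by library; right, summed TPM of 4 marker lists of other cells on a log scale, with the number of genes in the key. The G2/M and other mitosis lists lay below 0 in homozygous replicates 1 and 2 (−0.14 to −0.22), the thymocyte sum reached 820 TPM in homozygous replicate 3, and the airway and lung sum was highest in wild-type replicate 1.

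Genes of the same processes outside the 50 had similar positions. Of 25 other replication genes 0 were called in any comparison by limma, 3 had an unadjusted p under 0.05 in homozygous against wild-type hearts, and their median lay 0.08 below that of all genes with 17 of 25 below. *Orc6*, a subunit of the origin recognition complex, was at 20.7 TPM or less in the wild type, 23.4, 19.5 and 21.1 in heterozygotes and 27.1, 25.7 and 34.3 TPM in homozygotes (log2 0.53, SE 0.14, limma, adjusted p = 0.0986). *Slbp*, which binds the stem-loop of histone mRNA, was at 23.2, 23.3 and 38.1 in the wild type, 41.3, 32.7 and 33.6 in heterozygotes and 39.8, 39.5 and 50.5 TPM in homozygotes (log2 0.63, SE 0.20, limma, adjusted p = 0.121). Both were above all wild-type libraries in homozygous hearts without overlap, and the highest value of each was in homozygous replicate 3.

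Of 32 other mitosis genes 0 were called in any comparison, 3 had an unadjusted p under 0.05 in homozygous against wild-type hearts, and their median lay 0.20 below that of all genes with 26 of 32 below, and 0.17 below with 30 of 32 below in homozygous against heterozygous hearts. *Ccnf*, cyclin F, was at 6.30, 5.64 and 10.2 in the wild type, 9.86, 8.32 and 10.7 in heterozygotes and 10.8, 8.67 and 12.7 TPM in homozygotes (log2 0.51, SE 0.21, limma, adjusted p = 0.178). *Kif15*, a spindle kinesin, was at 3.68, 4.88 and 7.39 in the wild type, 6.79, 6.21 and 7.39 in heterozygotes and 6.93, 6.38 and 8.09 TPM in homozygotes (log2 0.40, SE 0.21, limma, adjusted p = 0.242). Both lay above the median of all genes, where most of the list lay below it, while 18 of the 32 had a log2 difference above 0. *Spc25*, of the NDC80 kinetochore complex, was lower in homozygous hearts than in both other groups without overlap, at 40.7, 41.9 and 46.1 in the wild type, 43.4, 42.2 and 49.3 in heterozygotes and 34.3, 32.8 and 37.1 TPM in homozygotes (log2 −0.30 against wild-type hearts, SE 0.11, limma, adjusted p = 0.151).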

How the data were processed

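Whole-heart RNA from 9 mouse embryo libraries was enriched for mRNA with capture beads by the authors, who used Trim Galore (v0.6.10) for trimming, STAR (v2.7.4a) for alignment to mm10 and RSEM (v1.2.28) for gene quantification. Which annotation and strand setting they used is not given in the sources used here. The deposited values are TPM per gene and library, which the authors scaled to a common total (999100 to 999245 per library). TPM keeps no depth, so read numbers and counting error are unknown, and the study's DESeq2 test of counts was not run. Of 24597 symbols, 26 turned into dates were left out.

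Values were analysed as log2(TPM + 1), a pseudocount of 1, where the mean over libraries reached 1 TPM. All 9 libraries were fitted together with limma (v3.58.1, eBayes with trend) in R (v4.3.3), with groups taken from the labels, and two-sided p-values were adjusted by Benjamini-Hochberg over 13682 genes. Groups of genes are described by counts and medians beside those of all genes, without a test. The fit was tested on simulated data. Gene coordinates and overlaps are from GENCODE M21 (mm10), promoters from RefSeq.

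The members, the other lists and the markers were chosen with earlier results of these data known. Per-library values were given for called members, the 3 most abundant and the 2 with the largest log2 difference of each role group, all inhibitors, 12 standard cell cycle genes whatever their values, the 2 largest differences of each other list, and *Ctcf*. Alternative pseudocounts, filters, scalings, weights, covariates and left-out libraries were tried.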

Additional observations from a re-analysis of the deposited data

How the results depend on the processing

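The 0 member calls of homozygous against heterozygous and of heterozygous against wild-type hearts stood in all 22 settings. For homozygous against wild-type hearts the count was 2 after median-ratio scaling (229 genes called in all, against 46), 7 with library weights (5068 in all, 37% of genes) and between 0 and 3 when single libraries were left out, the 3 coming without wild-type replicate 3 (2161 in all) and being *Ccnd3*, *Ccne2* and *Mcm7*. Genes called in all numbered 11 to 77 in the other settings apart from the 279 without homozygous replicate 3. In homozygous against heterozygous hearts they numbered 0 to 43 (6 as reported) and in heterozygous against wild-type hearts 0 to 6 (2 as reported). The G2/M median relative to all genes was −0.11 without a filter on low values and −0.32 without the 3 libraries holding transcripts of other organs, and ran from −0.32 to −0.11 in all. The *Ctcf* difference passed with library weights (0.46) and ran from 0.41 to 0.61 with single libraries left out, passing without wild-type replicate 3.

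Of the 50 members, 33 had log2 differences of both signs over all settings in homozygous against wild-type hearts, among them *Rrm2*, *Pcna*, *Mcm3*, *E2f1*, *Ccne1*, *Ccnd1*, *Cdk1*, *Ccnb1* and *Anln*, as had 25 in homozygous against heterozygous and 31 in heterozygous against wild-type hearts. Among the genes whose test was followed setting by setting, the sign turned for *Ccna2* with library weights (0.0011), for *Cdkn1b* after median-ratio scaling (−0.0193), for *Mki67* without the 3 libraries (−0.0249), for *Top2a* after median-ratio scaling (−0.0687) and without the 3 libraries (−0.0242), and for *Cdkn2c* with library weights (0.22) and without wild-type replicate 3 (0.18) or homozygous replicate 3 (0.07), with a range of −0.1342 to 0.1781 over left-out libraries. The causes were not tested. Of 813 recomputed values, 771 were counted as unchanged. For a single gene this meant the same direction and side of the threshold, and for member calls a count still at 0. For the S and G2/M medians it meant a shift under the spread between libraries of a genotype (0.19 and 0.08), whatever the sign. Replicate numbers are shared by the genotypes, and 2 of 9 same-numbered pairs correlated above 0.1 (range −0.03 to 0.36). Both were pairs of a wild-type with a heterozygous library (0.36 and 0.30), while pairs of unlike number ran from −0.31 to 0.12. The numbers were not taken to pair libraries, and whether these pairs shared a litter or batch was not tested. With a replicate block 0 members were called in each comparison. In homozygous against wild-type hearts 4 then had an unadjusted p under 0.05 by limma, and 17 genes were called in all.

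With 3 libraries per genotype the median standard error of a member's log2 difference was 0.16, against 0.18 over all genes, so differences of the size seen here for most members could not be told from 0. The depth behind the values is unknown.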

Other observations

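Genes linked to cell cycle arrest, outside the inhibitors above, were examined as a further list of 16. Not all are brakes, as the list holds *Mdm2*, whose product acts against p53. Of the 16, *Cdkn2a* (0 to 0.14 TPM) and *Cdkn2b* (0.23 to 0.60 TPM) were too low to test. Of the 14 tested, limma called 0 in any comparison. In homozygous against wild-type hearts 4 were higher and 2 lower at an unadjusted p under 0.05, beside 22.9% and 2.16% of all genes. *Gadd45g*, a stress-induced growth arrest gene, stood at 77.5, 60.8 and 40.4 in the wild type, 54.3, 41.3 and 35.9 in heterozygotes and 37.6, 28.2 and 27.1 TPM in homozygotes, and the homozygous libraries were below all wild-type libraries (log2 −0.89, SE 0.24, limma, adjusted p = 0.107). *Btg2*, an antiproliferative early response gene, was at 62.4, 66.5 and 16.2 in the wild type, 20.7, 15.8 and 15.1 in heterozygotes and 15.9, 15.9 and 29.8 TPM in homozygotes (log2 −1.02, SE 0.46, limma, adjusted p = 0.194), and its high values were in wild-type replicates 1 and 2. *Gadd45g* and *Btg2* passed with library weights and without wild-type replicate 3, settings in which far more of all genes were called too, as given above.

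The 4 higher genes, named here after their values were seen, were *Cdkn1c*, *Rb1*, *Rbl2* and *Trp53*. *Cdkn1c* (p57), an imprinted CDK inhibitor of differentiating cells, was at 111, 88.0 and 83.7 in the wild type, 139, 120 and 106 in heterozygotes and 177, 177 and 108 TPM in homozygotes, with the lowest homozygous value in replicate 3, the library with thymus transcripts (log2 0.68, SE 0.20, limma, adjusted p = 0.115). Without that library the difference was 0.91 and passed (limma, adjusted p = 0.0228), and without all 3 libraries holding transcripts of other organs it was 1.03 (limma, adjusted p = 0.0132). Without homozygous replicate 3 more of all genes were called too, as given above, and both settings had fewer homozygous libraries. *Rb1* and *Rbl2*, of the retinoblastoma family, had log2 differences of 0.49 (SE 0.15, limma, adjusted p = 0.120) and 0.47 (SE 0.15, limma, adjusted p = 0.126), and the homozygous libraries were above all others. Without overlap, 3 of the 14 tested genes were higher than in wild-type hearts and 2 lower, beside 22.3% and 2.38% of all genes. Against heterozygous hearts 5 were higher and 1 lower, beside 12% and 3.85%. The median of the 14 against wild-type hearts lay 0.02 above that of all genes, with 8 of 14 above it.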
